A study of Mus musculus with 11 samples.

Results

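The receptors for the colony-stimulating factors, the ligand gene Csf1 and the receptor tyrosine kinase gene Met were followed in alveolar macrophages of mice during and after a course of CpG DNA. The rule took every transcript cluster of the array whose gene symbol was Csf1, Csf1r, Csf2ra, Csf2rb, Csf2rb2, Csf3r or Met. Of these 7 genes 6 had a cluster, 1 each. No cluster carried the symbol Csf2rb2 in the annotation used here, so that gene has no value. All 6 passed the filter on low values, as did 12143 of the 19505 genes with a symbol. The choice of the 6 genes used no measured value, but it was made with earlier results of these data in view.

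Colony-stimulating factors are cytokines that govern the survival, growth and state of myeloid cells. Csf1r is the receptor for Csf1 (M-CSF) and for interleukin 34, and it marks the mononuclear phagocyte lineage. Csf2ra and Csf2rb form the receptor for GM-CSF, on which alveolar macrophages depend for their development and for clearing surfactant. Csf2ra binds the ligand, while Csf2rb carries the signal through Jak2 and Stat5. Csf2rb2 is a close mouse relative of Csf2rb that serves interleukin 3. Csf3r is the receptor for G-CSF and is best known from neutrophils. Met is the receptor for hepatocyte growth factor (Hgf), best known from epithelial cells and also described in macrophages.

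The resolution group (n = 4) was given CpG 1826 and lavaged on day 30. The acute group (n = 3) was given the same oligonucleotide and lavaged on day 10. The control group (n = 4) was given PBS and lavaged on day 10. The mice of every group were female, of strain C57BL/6J and 6 weeks old at purchase, and each received 5 injections over 10 days. CpG 1826 is a DNA oligonucleotide that activates the sensor Tlr9, and the labels name the 2 CpG groups after macrophage activation syndrome (MAS), a hyperinflammatory state. Alveolar macrophages were purified from lavage fluid by adherence, a step that does not sort by surface marker. A PBS group at day 30 is not among the labelled groups, so in resolution against control the treatment and the 20 day gap between lavages cannot be told apart. The labels number the arrays as biological replicates and do not say whether 1 mouse or several gave each.

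The values are array intensities, given here as log2(intensity + 1). The median intensity of an array lay between 51.4 and 57.0. Background was taken as the 90th percentile of 23 antigenomic probe sets, which match no mouse gene, and lay between 6.12 and 6.24 on the log2 scale. Between 8731 and 8952 genes exceeded it on an array. All 11 measured alveolar macrophage markers of a list of 12, among them Fabp4, Cidec and Krt79, were above background on every array. In a principal component analysis of the tested genes, component 1 (43.9% of the variance) set the resolution arrays apart from the other 7. Component 3 (10.2%) had control replicate 4 at one end. The level of one gene's cluster is not compared with that of another below, because probes differ in brightness.

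Promoter windows, the 250 bases before the annotated start, are shown for the gene that fell most (Met), the gene that rose (Csf3r) and the GM-CSF receptor subunit that passed no test (Csf2ra). They come from RefSeq on build GRCm38.p6, whose table has an entry for 5 of the 7 genes. Each is written 5′ to 3′ on the gene's strand, and capitals mark the motifs found. Met is at chr6:17463707-17463956 on the plus strand, Csf3r at chr4:126024409-126024658 on the plus strand and Csf2ra at chr19:61228419-61228668 on the minus strand.
Met: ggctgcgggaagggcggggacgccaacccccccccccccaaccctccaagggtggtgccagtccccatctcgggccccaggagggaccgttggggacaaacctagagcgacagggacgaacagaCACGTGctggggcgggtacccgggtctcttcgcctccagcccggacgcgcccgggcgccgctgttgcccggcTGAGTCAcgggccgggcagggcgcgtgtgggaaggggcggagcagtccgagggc
Csf3r: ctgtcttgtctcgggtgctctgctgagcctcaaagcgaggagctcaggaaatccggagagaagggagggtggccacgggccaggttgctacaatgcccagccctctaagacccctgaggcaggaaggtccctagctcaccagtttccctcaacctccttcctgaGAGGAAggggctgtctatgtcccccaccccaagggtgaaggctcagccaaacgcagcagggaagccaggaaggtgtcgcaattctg
Csf2ra: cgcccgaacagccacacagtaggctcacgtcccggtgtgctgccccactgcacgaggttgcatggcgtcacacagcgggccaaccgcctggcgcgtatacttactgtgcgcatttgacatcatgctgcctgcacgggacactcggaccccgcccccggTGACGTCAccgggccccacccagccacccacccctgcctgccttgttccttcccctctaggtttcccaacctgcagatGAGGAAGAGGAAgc
Both strands were searched for 4 motifs by exact letters. These were AP-1 (TGANTCA), the E-box CACGTG, the cAMP response element TGACGTCA and the PU.1 core GAGGAA. Met held 1 AP-1 match, starting 54 bases before the start, and 1 E-box, starting 126 bases before it. Csf3r held 1 PU.1 core. Csf2ra held 1 cAMP response element and 2 PU.1 cores that lie side by side. Among 32851 windows of this length, 6.75% held the AP-1 motif, 6.02% the E-box, 1.55% the cAMP response element and 23.3% the PU.1 core. A match describes the letters in a window and is not a binding site.

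The acute comparison asks what differed at the end of the CpG course. None of the 6 genes passed the test in acute against control macrophages (limma, Benjamini-Hochberg adjusted over 12143 genes). Of all genes 0.239% passed it, 0.189% higher and 0.0494% lower. At an unadjusted p under 0.05 there was 1 gene of the 6, Met, beside 9.05% of all genes. In none of the 6 were the acute arrays clear of the control arrays, against 10.1% of all genes. The 6 genes had a median difference of -0.08, and all tested genes one of -0.00059.

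The resolution comparisons ask what differed 20 days later. In resolution against control macrophages Csf3r rose, Met, Csf1r and Csf2rb fell, and Csf1 and Csf2ra did not pass the test. The calls thus numbered 4 of 6 genes, where 18.6% of all genes were called. The 1 gene that rose stands beside 9.6% of all genes called higher, and the 3 that fell stand beside 9% called lower. At an unadjusted p under 0.05 the count was again 4, beside 31.3% of all genes. In 3 of the 6 genes the arrays of the groups did not overlap, as in 22.7% of all genes. The median difference was -0.17 for the 6 genes and 0.0035 for all tested genes.

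Against the acute group the same 4 genes were called in the same directions. That count compares with 14.5% of all genes called, 7.77% higher and 6.69% lower, and with 4 genes at an unadjusted p under 0.05 beside 28.8% of all genes. The groups did not overlap in 5 of the 6 genes, compared with 26.3% of all genes. The median difference was -0.13 for the 6 genes and -0.0013 for all. Both comparisons use the same 4 resolution arrays, so they are not independent of each other.

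**Figure D1:**
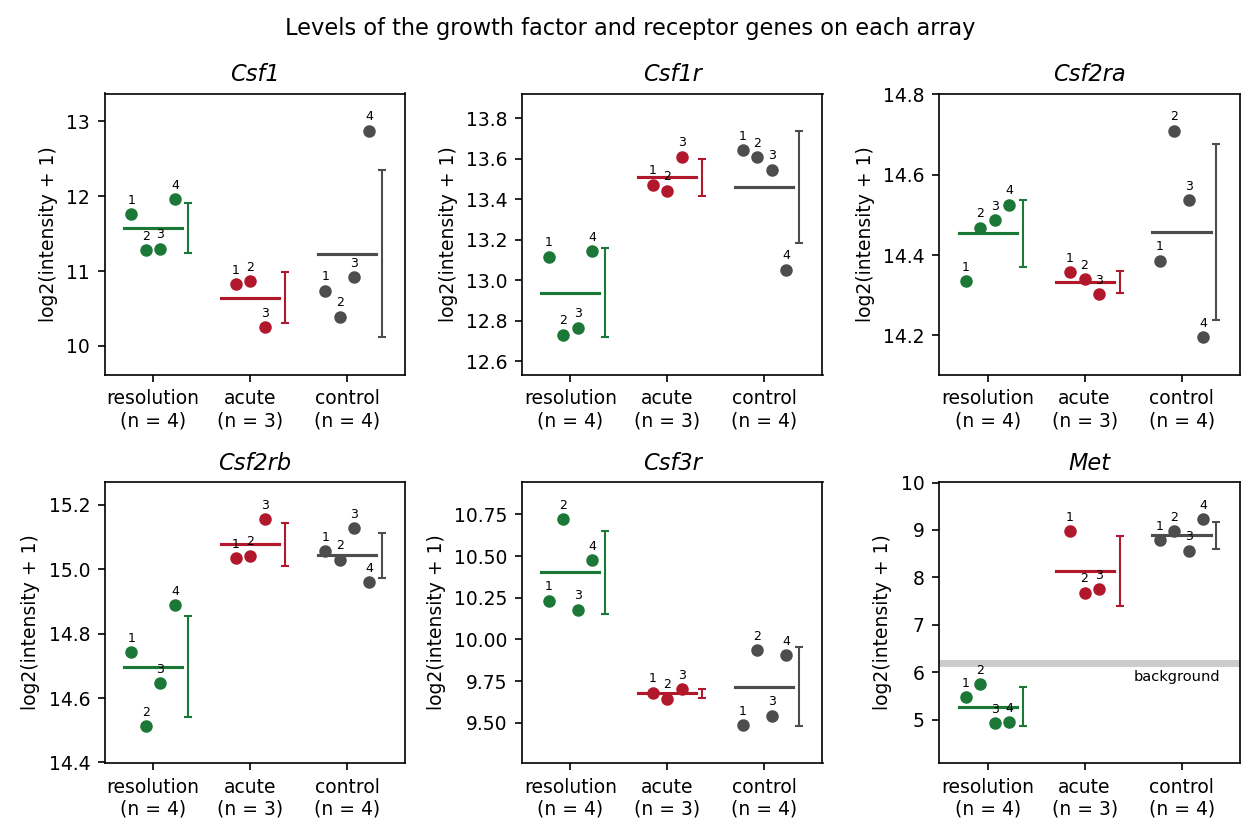
Level of each of the 6 genes, as log2(intensity + 1), on every array of the resolution, acute and control groups from left to right. Points are arrays with their replicate numbers, horizontal lines group means, bars the SD and the grey band the range of background. The vertical axes differ between genes. Met lies below background on all 4 resolution arrays, and 1 Csf1 control array, replicate 4, lies at 12.88, above every other array.

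**Figure D2:**
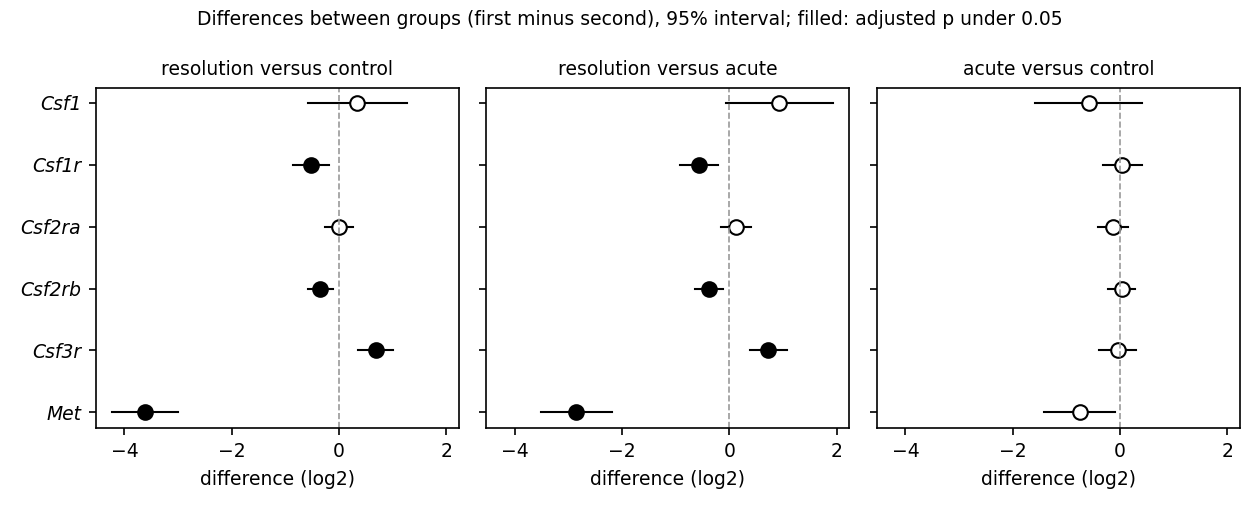
Difference between group means for each gene, in log2 units, with 95% confidence intervals from limma, for resolution against control, resolution against acute and acute against control. Filled points passed an adjusted p of 0.05. The intervals of acute against control include 0 for every gene but Met, whose adjusted p was 0.484.

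Met showed the largest difference of the 6 genes. Its levels were 5.47, 5.75, 4.93 and 4.94 on the resolution arrays. They were 8.97, 7.67 and 7.75 on the acute arrays and 8.78, 8.97, 8.57 and 9.23 on the control arrays. All 4 resolution arrays were below background, and all acute and control arrays were above it, so the groups did not overlap. Met averaged 5.27 ± 0.41 in resolution (SD, n = 4), 8.13 ± 0.73 in acute (n = 3) and 8.89 ± 0.28 in control macrophages (n = 4).

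The difference of resolution from control was -3.61 ± 0.28 (SE; 95% interval -4.23 to -3.00, adjusted p = 4.50e-06). Because a level below background is only a bound, Met was at least 6.48-fold lower in resolution than in control macrophages. The bound takes the dim group at the background of its arrays. It was at least 3.84-fold lower than in acute macrophages, with a difference of -2.86 ± 0.31 (95% interval -3.52 to -2.20, adjusted p = 7.66e-05). With background set instead at the brightest antigenomic probe set, an alternative chosen after seeing the data, the bounds narrowed to 1.60 and 0.85 on the log2 scale, against 2.70 and 1.94 here. In this whole-population RNA, fewer cells that express a gene and less RNA per cell cannot be told apart, for Met or for any gene below.

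Acute and control levels of Met overlapped through acute replicate 1, which lay among the controls. The acute minus control difference was -0.75 ± 0.31 (95% interval -1.42 to -0.09, unadjusted p = 0.0291, adjusted p = 0.484). Without acute replicate 1 it was -1.17 (adjusted p = 0.136). The order of the means was thus resolution, acute and control from low to high, and the last pair was not separated after adjustment.

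Met is known from epithelium, so a list of 15 lung epithelial markers was set beside it. Of these, 14 were on the array and 12 were tested. Between resolution and control 1 was called higher and 4 lower, beside 9.6% and 9% of all genes. Krt19, an epithelial keratin, differed by 1.78 ± 0.15, while the club cell secretory gene Scgb1a1 differed by -1.44 ± 0.34. Scgb3a2 and Bpifa1, both secretory airway genes, differed by -1.88 ± 0.44 and -1.84 ± 0.39. Relative to acute macrophages 1 was higher and 7 were lower, beside 7.77% and 6.69% of all genes. Bpifa1 differed by -4.39 ± 0.42, Scgb3a2 by -4.35 ± 0.48 and Scgb1a1 by -3.67 ± 0.37. Between acute and control macrophages 4 were higher and 0 lower, beside 0.189% and 0.0494% of all genes. Bpifa1 differed by 2.55 ± 0.42 (adjusted p = 0.0269). With 1 array left out, the calls were kept in 6 of 11 fits for Scgb1a1 and in 5 for Scgb3a1. They were kept in 4 for Bpifa1 and in 3 for Cyp2f2.

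The summed epithelial signal ranged over 14.67 to 14.86 in resolution, 14.87 to 15.54 in acute and 13.97 to 14.62 in control macrophages (log2). Sftpb and Krt18 were below background on every array. Cdh1 and Krt19 together made up 86.8% to 92.8% of the sum on the resolution arrays. Their share was 22.1% to 41.9% on the acute arrays and 61.4% to 71.2% on the control arrays. Every resolution sum exceeded every control sum, although Scgb1a1, Scgb3a2, Bpifa1 and Cyp2f2 were called lower. The 4 markers called lower in resolution than in control macrophages moved in the direction of Met, and Krt19 moved the other way. Against acute macrophages 7 were called lower, as Met was, and Krt19 higher. In acute against control macrophages Scgb1a1, Scgb3a1, Bpifa1 and Cyp2f2 were called higher, while Met differed by -0.75 and was not called. The part of epithelial cells in the Met values was not tested.

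The genes whose pattern lay nearest to that of Met were Ptgir, Srxn1 and Hmox1. Likeness was the root mean square difference between mean-centred log2 levels over the 11 arrays. It was 0.411 for Ptgir, the prostacyclin receptor gene, 0.480 for Srxn1, which repairs oxidised peroxiredoxins, and 0.497 for Hmox1, the heme-degrading enzyme. The median over all genes was 1.68, and the spread of Met itself was 1.66. Between resolution and control these genes differed by -3.33 ± 0.29 for Ptgir, -3.40 ± 0.22 for Srxn1 and -3.94 ± 0.25 for Hmox1.

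**Figure D3:**
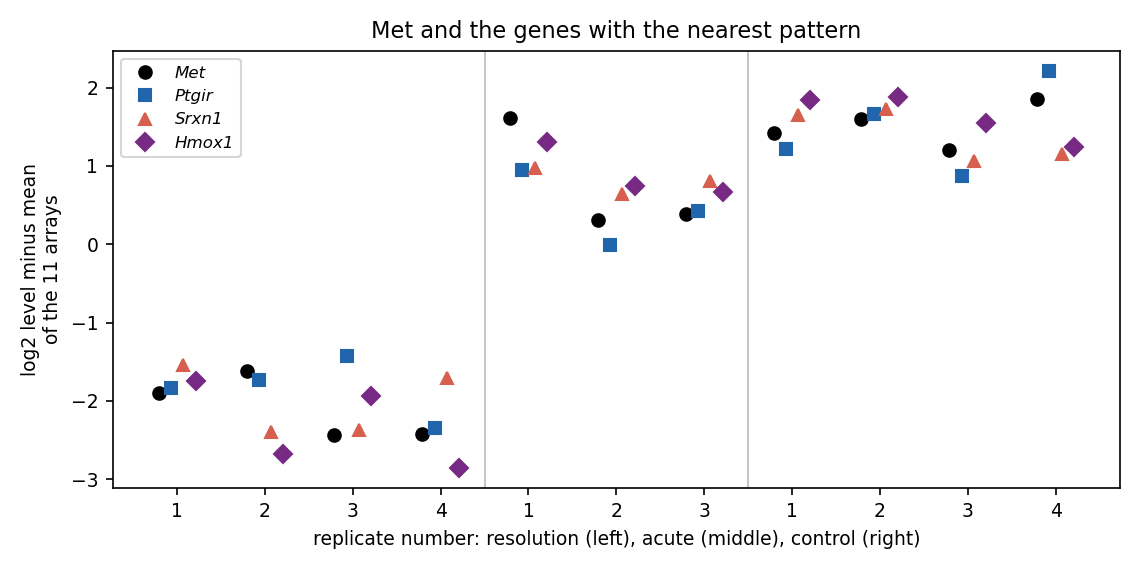
Mean-centred log2 level of Met, Ptgir, Srxn1 and Hmox1 on each of the 11 arrays, with the resolution arrays at left, the acute ones in the middle and the control ones at right. All 4 genes lie below their own mean on every resolution array, and, apart from Ptgir on acute replicate 2, above it on the acute and control arrays.

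Of the 6 genes, Csf3r was the 1 that rose. The resolution arrays read 10.23, 10.72, 10.18 and 10.48, the acute arrays 9.68, 9.65 and 9.70, and the control arrays 9.49, 9.94, 9.54 and 9.90. Every resolution array lay above every acute and control array, while the acute values lay inside the control range. The group means were 10.40 ± 0.25 in resolution (SD, n = 4), 9.68 ± 0.03 in acute (n = 3) and 9.72 ± 0.24 in control macrophages (n = 4). The gene was 1.61-fold higher in resolution than in control macrophages, a difference of 0.68 ± 0.15 (95% interval 0.36 to 1.01, adjusted p = 0.00659). It was 1.65-fold higher than in acute macrophages, a difference of 0.73 ± 0.16 (adjusted p = 0.00964). Acute and control means differed by -0.04 ± 0.16 (95% interval -0.39 to 0.31, adjusted p = 0.965). The nearest patterns were those of Lcmt1, Mbtps1 and Slc17a5, at 0.118, 0.130 and 0.140, where the median over all genes was 0.449. The spread of Csf3r itself was 0.383. Slc17a5 was not called in either resolution comparison.

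Because Csf3r marks neutrophils, 12 neutrophil markers were set beside it, of which 11 were on the array and 6 were tested. Between resolution and control 0 were higher and 2 were lower, where 9.6% of all genes were called higher and 9% lower. The lower ones were Cxcr2, a chemokine receptor, at -1.08 ± 0.13 and Ltf, the granule protein lactoferrin. Ltf was below background on all 4 resolution arrays and on 3 of the 4 control arrays, so it has no fold there (adjusted p = 0.0138). Against acute macrophages, where 7.77% of all genes were called higher and 6.69% lower, 0 were higher. The same 2 were lower, with Ltf at least 1.76-fold lower. The granule genes Elane, Camp and Ngp and the protease gene Mmp9 were below background on all 11 arrays. The summed neutrophil signal ranged over 11.71 to 12.64 in resolution, 11.95 to 12.28 in acute and 11.43 to 13.24 in control macrophages. The control maximum was that of replicate 4, and without it the controls reached 12.10, below the highest resolution array. The collagenase gene Mmp8 made up 76.6% to 89.3% of the sum on the resolution arrays. Without Mmp8 the sum ranged over 9.37 to 10.02 in resolution, 10.41 to 10.46 in acute and 9.94 to 12.46 in control macrophages. These sums without 1 marker or array were added after seeing the data. The part of neutrophils in the Csf3r values was not tested.

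Csf1r, the M-CSF receptor, was slightly lower in resolution macrophages. Its levels were 13.12, 12.73, 12.77 and 13.14 in resolution, 13.47, 13.44 and 13.61 in acute and 13.64, 13.61, 13.54 and 13.05 in control macrophages. Control replicate 4 lay within the resolution range, and the other 3 controls lay above it. The means were 12.94 ± 0.22 in resolution, 13.51 ± 0.09 in acute and 13.46 ± 0.28 in control macrophages.

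Resolution minus control was -0.52 ± 0.15 (95% interval -0.86 to -0.19, adjusted p = 0.0319), a level 1.44-fold lower. The call was lost when resolution replicate 2 or 3 or control replicate 1, 2 or 3 was left out, with adjusted p up to 0.0888. Without control replicate 4 the difference was -0.66 (adjusted p = 0.00611). Resolution minus acute was -0.57 ± 0.17 (adjusted p = 0.0381), with no overlap of the arrays. That call was lost without resolution replicate 2 or 3 or any 1 of the acute arrays, with adjusted p up to 0.119. Acute minus control was 0.05 ± 0.17 (95% interval -0.31 to 0.41, adjusted p = 0.963).

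Monocyte and interstitial macrophage markers were set beside Csf1r. Of 10 monocyte markers 9 were on the array and 6 were tested. In resolution against control macrophages 2 of them, Nr4a1 and Ccr2, were higher and 0 lower, beside 9.6% and 9% of all genes. Nr4a1, a nuclear receptor of patrolling monocytes, was above background on every array of all groups and differed by 2.09 ± 0.25. Ccr2 was above background on 3 of 4 resolution arrays and 0 of 4 control arrays. Its call was kept in 7 of the 11 fits that left out 1 array. Nr4a1 alone made up at least 91.9% of the summed monocyte signal on the resolution arrays, so that sum repeats its values. Without Nr4a1, a sum also added after seeing the data, it ranged over 9.97 to 10.39 in resolution, 9.81 to 9.91 in acute and 9.77 to 10.18 in control macrophages. The monocyte genes Ly6c2, Cx3cr1 and F13a1 were below background on every array. Of 10 interstitial macrophage markers 9 were on the array and 7 were tested. Of the 7, 1 was higher in resolution than in control macrophages and 0 were lower, against the same shares of all genes. It was the complement gene C1qa, at 1.51 ± 0.27. C1qa was also the 1 called in acute against control macrophages, where 0.239% of all genes were called. The summed interstitial signal, of which Ms4a7 made up 55.8% to 67.9% on the resolution arrays, overlapped among the groups, at 11.07 to 11.96 in resolution, 11.32 to 11.99 in acute and 11.13 to 11.86 in control macrophages. The part of these markers in the Csf1r difference was not tested.

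Csf2rb, the signalling subunit of the GM-CSF receptor, was lower in resolution by about the same small step in both comparisons. It read 14.74, 14.51, 14.65 and 14.89 in resolution, 15.03, 15.04 and 15.16 in acute and 15.06, 15.03, 15.13 and 14.96 in control macrophages. Every resolution array lay below every acute and control array. The means were 14.70 ± 0.16 in resolution, 15.08 ± 0.07 in acute and 15.04 ± 0.07 in control macrophages.

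Resolution minus control was -0.35 ± 0.11 (95% interval -0.58 to -0.11, adjusted p = 0.0438), a level 1.27-fold lower. Resolution minus acute was -0.38 ± 0.12 (95% interval -0.64 to -0.12, adjusted p = 0.0485), a level 1.30-fold lower. Each call lay close to the threshold and was kept in 1 of the 11 fits that left out 1 array, the one without resolution replicate 4. The adjusted p of those fits reached 0.104 against control and 0.146 against acute. Acute minus control was 0.03 ± 0.12 (95% interval -0.22 to 0.29, adjusted p = 0.960). Csf2rb2 is nearly identical to Csf2rb in sequence, and with no probe sequences used here the cluster may read both.

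Csf2ra, the ligand-binding subunit, passed no test. Its levels were 14.34, 14.47, 14.49 and 14.53 in resolution, 14.36, 14.34 and 14.30 in acute and 14.39, 14.71, 14.54 and 14.19 in control macrophages. The resolution and acute arrays lay inside the control range. Resolution minus control was -0.0031 ± 0.12 (95% interval -0.26 to 0.26, adjusted p = 0.991), and resolution minus acute was 0.12 ± 0.13 (95% interval -0.16 to 0.40, adjusted p = 0.599). Acute minus control was -0.12 ± 0.13 (95% interval -0.41 to 0.16, adjusted p = 0.825). Whether the 2 subunits differ in their change was not tested.

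Csf1, the ligand of Csf1r, depended on 1 array. It read 11.76, 11.28, 11.30 and 11.96 in resolution, 10.83, 10.86 and 10.25 in acute and 10.74, 10.39, 10.92 and 12.88 in control macrophages. Every resolution array exceeded every acute array and 3 of the 4 control arrays, and control replicate 4 exceeded the other 10 arrays. The means were 11.58 ± 0.34 in resolution, 10.65 ± 0.35 in acute and 11.23 ± 1.12 in control macrophages.

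Resolution minus control was 0.34 ± 0.43 (95% interval -0.58 to 1.27, adjusted p = 0.636), and without control replicate 4 it was 0.89 (adjusted p = 0.0149). Resolution minus acute was 0.93 ± 0.46 (95% interval -0.07 to 1.93, adjusted p = 0.207). That difference does not involve the controls, but its error does, and without control replicate 4 its adjusted p was 0.0130. Acute minus control was -0.58 ± 0.46 (95% interval -1.58 to 0.41, adjusted p = 0.744), and without control replicate 4 it was -0.04.

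The other ligands and receptors of these families were mostly undetected. Of 14 such genes, all on the array, 9 were below background on all 11 arrays. They were Csf2 and Csf3, which encode GM-CSF and G-CSF, Il34, Il3, Il5ra, Flt3, Flt3l, Kitl and Mst1. Il5 exceeded background on 1 array and Mst1r, a receptor related to Met, on 4. Il3ra, Kit and Hgf exceeded it on all 11. The filter passed 8 of the 14 genes, and none of the 8 was called by limma in any comparison. At an unadjusted p under 0.05 there were 1 in acute against control, 2 in resolution against control and 0 in resolution against acute. The shares of all genes were 9.05%, 31.3% and 28.8% in the same order.

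Hgf, the ligand of Met, averaged 9.10 ± 0.41 in resolution, 8.81 ± 0.34 in acute and 8.60 ± 0.46 in control macrophages. Resolution minus control was 0.50 ± 0.25 (95% interval -0.04 to 1.04, adjusted p = 0.197), and resolution minus acute 0.28 ± 0.27 (adjusted p = 0.542). Its direction, which did not pass, was opposite to that of Met.

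Kit, the receptor for stem cell factor, read 7.19, 8.21, 9.75 and 7.74 in resolution, 7.71, 9.15 and 8.76 in acute and 7.05, 6.85, 7.38 and 6.81 in control macrophages. The acute arrays lay above all controls, and the resolution arrays overlapped them through replicate 1. Acute minus control was 1.52 ± 0.49 (adjusted p = 0.341) and resolution minus control 1.20 ± 0.45 (adjusted p = 0.0873). Without resolution replicate 1 the resolution against control value was 1.55 (adjusted p = 0.0322). Il3ra, the interleukin 3 receptor subunit, had the smallest p of these genes in resolution against acute macrophages, at 0.26 ± 0.14 (adjusted p = 0.260).

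Downstream of the receptors, 35 signalling genes of the colony-stimulating factor receptors were listed, of which 33 were on the array and 29 were tested. In resolution against control 4 rose, 6 fell and 19 did not pass, with a median of -0.14. Over all genes 9.6% were called higher and 9% lower. Socs2, a suppressor of cytokine signalling, averaged 9.04 ± 0.42 in resolution and 7.37 ± 0.08 in control macrophages, a difference of 1.67 ± 0.20 (adjusted p = 0.000123). Pik3cd, a leukocyte catalytic subunit of phosphatidylinositol 3-kinase, rose by 1.06 ± 0.14. Cblb, a ubiquitin ligase that dampens receptor signalling, fell by 0.97 ± 0.12.

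Pim1, a kinase gene induced through Stat5, fell by 1.21 ± 0.32 (adjusted p = 0.0198), a call lost without resolution replicate 3 or control replicate 3. The phosphatase gene Ptpn6 and the regulatory subunit gene Pik3r1 also rose. The kinase gene Jak2, the transcription factor gene Stat5a, the adaptor gene Grb2 and Adam17, a protease that sheds Csf1r, also fell.

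Against acute macrophages 3 of the 29 rose, 5 fell and 21 did not pass, with a median of -0.06. Over all genes 7.77% were called higher and 6.69% lower. Socs2 rose by 1.03 ± 0.22, Pik3cd by 0.94 ± 0.15 and Pik3r1 by 0.92 ± 0.13. Cblb fell by 1.33 ± 0.13, and Jak2, Stat5a, Grb2 and Adam17 were again lower. Between acute and control macrophages 0 of 29 were called, where 0.239% of all genes were. An unadjusted p under 0.05 was reached by 3, beside 9.05% of all genes. The smallest p was that of Ptpn6, at 0.41 ± 0.12 (adjusted p = 0.308).

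For Met, 25 genes of its signalling and of Hgf activation were listed, all on the array, and 21 were tested. In resolution against control 4 rose, 3 fell and 14 did not pass, with a median of 0.02. The shares of all genes called higher and lower were 9.6% and 9%. Plau, the urokinase protease able to activate Hgf, averaged 8.53 ± 0.44 in resolution and 10.06 ± 0.24 in control macrophages, a fall of 1.52 ± 0.21 (adjusted p = 0.000252). Ptprj, a receptor phosphatase that acts on Met, fell by 1.49 ± 0.17, and Grb2, counted also above, fell too. Plxnb2, a semaphorin receptor of the family that associates with Met, rose by 1.41 ± 0.21. Gab1, the docking protein of Met, rose by 0.93 ± 0.19, and the protease inhibitor gene Spint1 rose as well. The fourth call was the protease gene Hpn, which was above background on 1 of 4 resolution arrays and 0 of 4 control arrays and has no fold (adjusted p = 0.0487).

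Against acute macrophages 2 of the 21 rose, 3 fell and 16 did not pass, with a median of 0.10. The shares of all genes called higher and lower were 7.77% and 6.69%. Plxnb2 rose by 1.33 ± 0.22 and the integrin gene Itga6 also rose. Plau fell by 1.48 ± 0.22, Ptprj by 1.44 ± 0.18 and Grb2 by 0.78 ± 0.14. Among acute and control arrays 0 of 21 were called, where 0.239% of all genes were. An unadjusted p under 0.05 was reached by 1, beside 9.05% of all genes. It was Spint1, at 0.54 ± 0.19 (adjusted p = 0.411).

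**Figure D4:**
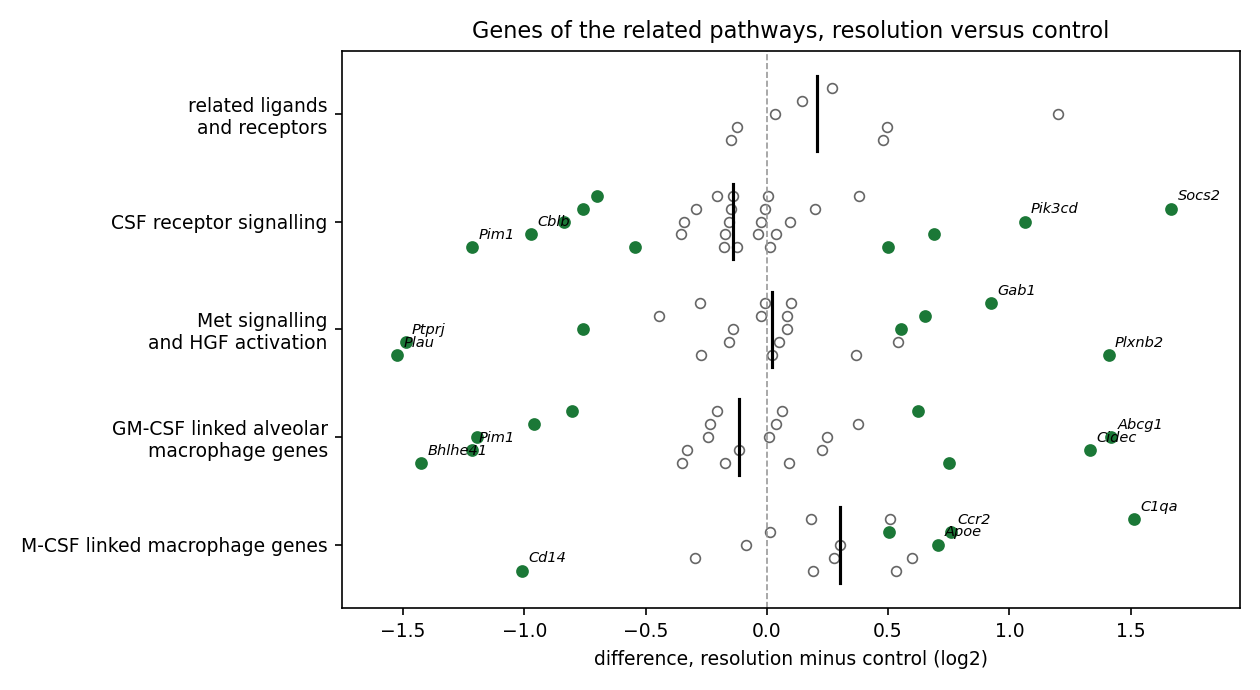
Difference of resolution from control macrophages, in log2 units, for each tested gene of the 5 pathway lists. Points are genes, filled where the adjusted p was under 0.05, and bars mark the median of a list. Labels name the largest called differences. Called genes lie on both sides of 0 in every list but that of related ligands and receptors, where none was called.

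Genes listed as linked to GM-CSF in alveolar macrophages went both ways. Of 25 listed, 24 were on the array and 23 were tested. Relative to control, in resolution 4 rose, 5 fell and 14 did not pass, with a median of -0.12. Among all genes 9.6% were called higher and 9% lower. The cholesterol exporter gene Abcg1 averaged 14.20 ± 0.16 in resolution and 12.78 ± 0.28 in control macrophages, a rise of 1.42 ± 0.16 (adjusted p = 6.90e-05). Cidec, a lipid droplet protein, rose by 1.33 ± 0.16, and Pparg, the lipid-sensing nuclear receptor, and Krt79 rose as well. Bhlhe41, a transcription factor of alveolar macrophage identity, fell by 1.43 ± 0.16, and Pim1 fell as given above. The fatty acid carriers Fabp4 and Fabp5 and the scavenger receptor Cd36 also fell.

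Against acute macrophages 4 of the 23 rose, 3 fell and 16 did not pass, with a median of 0.05. Among all genes 7.77% were called higher and 6.69% lower. Abcg1 rose by 1.51 ± 0.17 and Cidec by 1.21 ± 0.18. Bhlhe41 fell by 1.16 ± 0.17 and Fabp4 by 1.08 ± 0.15. In acute against control macrophages 0.239% of all genes were called. Of this list Cd36 was the 1 called, a fall of 0.82 ± 0.12 (adjusted p = 0.0165). That call was lost without acute replicate 2 or 3 or control replicate 1 or 2.

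Genes linked to M-CSF numbered 20, of which 18 were on the array and 15 were tested. Relative to control, in resolution 4 rose, 1 fell and 10 did not pass, with a median of 0.30. The calls stand beside 9.6% of all genes called higher and 9% lower. C1qa, a complement component, averaged 9.24 ± 0.57 in resolution and 7.73 ± 0.27 in control macrophages, a rise of 1.51 ± 0.27 (adjusted p = 0.00203). Apoe, the lipid carrier, rose by 0.71 ± 0.18 (adjusted p = 0.0159), a call lost without resolution replicate 3. Cd14, the lipopolysaccharide co-receptor, fell by 1.01 ± 0.17. Mertk, the receptor for uptake of dead cells, rose too. The chemokine receptor gene Ccr2 was above background on 3 of 4 resolution arrays and 0 of 4 control arrays and has no fold (adjusted p = 0.0228). That call was lost without resolution replicate 2 or 4 or control replicate 3 or 4.

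Against acute macrophages, where 7.77% of all genes were called higher and 6.69% lower, 1 of the 15 rose and 2 fell. The list median was -0.06. Cd14 fell by 1.46 ± 0.18. Mertk rose by 0.59 ± 0.16 (adjusted p = 0.0258), a call lost without resolution replicate 1, 3 or 4 or any 1 of the acute arrays. The other fall was of the complement gene C1qc, which was below background in resolution and too dim in acute macrophages to give a fold (adjusted p = 0.0328). Its call was lost without resolution replicate 2 or 4 or acute replicate 2 or 3. In acute against control macrophages, where 0.239% of all genes were called, C1qa was the 1 gene called. It rose by 1.88 ± 0.29 (adjusted p = 0.0201), with a list median of 0.33. That call was lost without acute replicate 2 or 3 or control replicate 1 or 2.

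The smaller falls had their own nearest patterns. For Csf1r they were Tlr2 at 0.0855, Arih1 at 0.117 and Uso1 at 0.131, where the median over all genes was 0.404. For Csf2rb they were Dapk1 at 0.0596, Rab8b at 0.0636 and Nip7 at 0.0659, where the median was 0.317. Csf1r itself had a spread of 0.323 over the 11 arrays and Csf2rb one of 0.198, so genes with flat patterns lie near both.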

How the data were processed

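RNA was measured on 11 Affymetrix arrays. Per the labels' protocols extraction used Trizol and labelling a Pico kit with biotin. Per the submitters' processing notes the authors used Affymetrix Expression Console. The sources used here give neither its version nor its summary algorithm nor a genome build. The deposited table holds linear intensities per transcript cluster, which were analysed unscaled as log2(intensity + 1). Of 28846 clusters 19572 had 1 gene symbol, 0 had several, 9243 had none and 31 were controls. All 19505 symbols matched the RefSeq table by gene identifier. For 55 symbols with several clusters the one with the highest mean was kept. Genes were tested where at least 3 arrays exceeded their own 40th percentile (12143 genes). All 11 arrays entered one model with a mean for each group and empirical Bayes variances (limma 3.58.1, R 4.3.3), and p-values were adjusted by the Benjamini-Hochberg method over all tested genes at a threshold of 0.05. The number of arrays limits precision.

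The genes and lists were chosen with earlier results of these data known. Named were all genes of the rule, per list the 4 largest differences past the threshold (or the smallest p), all related ligands and receptors by level, and the 3 genes nearest in pattern to each called gene. Other genes that passed are named without values. The background level was chosen after seeing the data. The fit was tested on simulated data. Same-numbered arrays did not deviate together (10 pairs, 0 of them with a correlation over 0.1). Alternatives changed the pseudocount, filter, scaling, fit, cluster choice and arrays. No pair of arrays held identical values.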

Additional observations from a re-analysis of the deposited data

Results flagged for a closer look

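In 8 of 120 combinations of a named gene and a group of 4, one array lay far from the other 3, by Dixon's ratio of the gap to the range at its 95% critical value. Chance alone gives this in about 5% of groups. Of the 12 combinations for the receptors, Csf1 and Met there was 1, Csf1r, which read 13.05 on control replicate 4 while the other controls read 13.54 to 13.64. The same array was low for Krt79, an alveolar macrophage marker, at 13.24 against 13.79 to 13.89.

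Among resolution arrays, Abcg1 read 13.96 on replicate 2 against 14.26 to 14.29 on the others. Nr4a1 read 14.57 on resolution replicate 4 against 13.78 to 13.91. The endothelial gene Vwf read 7.76 on resolution replicate 1 against 7.56 on the others. Among control arrays, Vwf read 7.73 on replicate 2 against 8.14 to 8.21, and Pik3cd read 6.49 on replicate 2 against 6.75 to 6.77. Nip7, a gene near Csf2rb in pattern, read 8.44 on control replicate 3 against 8.23 to 8.25.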

How the results depend on the processing

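Met and Csf3r kept their direction and their call in resolution against control and against acute under all 21 alternatives each. Csf1r and Csf2rb kept their direction under all 21 but not always their call. In each of the 2 comparisons Csf1r kept its call in 14 alternatives and Csf2rb in 7. The called genes among the 6 numbered 2 in resolution against control with the replicate block and with only the 2 groups compared, and 2 in resolution against acute with no filter and with the replicate block, against 4 in each case here. Leaving out 1 array gave 2 to 4 in both comparisons and 0 in acute against control. With the replicate block the adjusted p in resolution against control was 0.0588 for Csf1r and 0.0784 for Csf2rb. The shared numbers rest on labels alone. With only the 2 groups compared, a fit that does not use those numbers, the adjusted p was 0.0552 for Csf1r and 0.0723 for Csf2rb. Over all genes, acute against control gave 29 calls, 16 with only the 2 groups compared, 51 with an intensity trend, 25 with the replicate block and 5 to 29 without 1 array. Resolution against control gave 2259, 1495 without control replicates 3 and 4, 2120 with the replicate block and 1830 to 2247 without 1 array. Resolution against acute gave 1755, 1455 with the replicate block and 1068 to 1846 without 1 array, the lowest without acute replicate 1. Scaling moved the split of higher and lower calls in resolution against acute, 943 and 812 here, to 673 and 989 at a common median and to 685 and 1151 after quantile normalization. In acute against control it moved 23 and 6 to 29 and 3 after quantile normalization. Some differences changed sign. Csf1 in acute against control, -0.58 here, was 0.0823 without control replicates 3 and 4 and -0.04 without control replicate 4 alone. The others were near 0, and their cause was not tested. In acute against control Csf3r was 0.0238 after quantile normalization and 0.0019 with the replicate block, and Csf1r was -0.117 without control replicates 3 and 4. Leaving out 1 array gave -0.0904 to 0.106 for Csf1r, -0.0047 to 0.0624 for Csf2rb and -0.119 to 0.0318 for Csf3r in acute against control, and -0.0905 to 0.0811 for Csf2ra in resolution against control. With background at the median antigenomic probe set the Met resolution arrays were not all below it, so no bound was given.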

Other observations

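Control replicate 4 differed from the other controls in several of these genes at once, a pattern noticed in the data. It held the highest Csf1 (12.88) and the highest Met (9.23) of all 11 arrays and the lowest Csf2ra (14.19). Among neutrophil markers it held the highest S100a8, at 12.16 where the other controls read 8.55 to 9.81, the highest S100a9, at 8.88 against 6.05 to 7.88, and the highest Retnlg, at 7.11 against 4.01 to 4.43. Mpo was lowest on this array, at 5.78, but that is below the background of the array, 6.12. Cxcr2, above background, read 7.97 against 7.99 to 8.25 on the other controls. Its Csf3r, at 9.90, lay inside the range of the other controls, 9.49 to 9.94. The array stood out in markers of other lists too. Itgam read 8.72 against 5.70 to 6.39 on the other controls. Cdh5 read 7.42 against 4.18 to 4.39, and Prg2 6.95 against 4.15 to 4.69. The airway genes Scgb1a1, Scgb3a1, Scgb3a2, Bpifa1 and Cyp2f2 each read highest among the controls on it, Scgb3a1 at 9.71 against 7.31 to 8.30. Sftpc read lowest among the controls, at 9.55 against 10.5 to 11.97. These genes were chosen after their values were seen.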
